A study of Saccharomyces cerevisiae with 14 samples.

Results

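The 4 libraries numbered replicate 1, with 1 from each of 4 budding yeast strains, were set against the 7 libraries numbered replicate 2 or 3, to see which cell functions differed with the replicate number of the culture. These 4 libraries were taken by their number alone, out of 11 libraries with values. Each measured gene had to average at least 5 normalized counts over the 11 libraries, a limit that 6592 of 7122 genes passed. A normalized count is the number of sequencing reads on a gene divided by a factor for the depth of its library.

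The strains were Saccharomyces cerevisiae Y258, a derivative of S288C, each carrying a plasmid that overexpressed 1 chaperone gene. oe SSC1 carried the gene of the Hsp70 of the mitochondrial matrix, oe LHS1 that of an Hsp70 relative in the endoplasmic reticulum, oe EGD2 that of the alpha part of the complex that meets new chains at the ribosome, and oe TCP1 that of a ring protein of the cytosolic chaperonin. Replicate 1 held 1 library of each strain, while the later replicates held 2 of each strain except oe EGD2, which had 1. The study removed outlier libraries before deposit, and whether the numbers of the oe EGD2 libraries are those of the cultures as grown is not given in the sources used here. Where 4 values by strain follow each other, they are in the order oe SSC1, oe LHS1, oe EGD2, oe TCP1. All 11 cultures were chaperone strains selected without uracil, in medium with 2% glucose at 30 °C, and harvested in exponential growth at an OD of 0.6 to 0.8 according to the labels. The study's general methods instead describe induction with galactose and cells taken after the diauxic shift, the switch from fermentation to respiration. No label or methods text at hand says which applied to these libraries. GAL1, the galactokinase gene that galactose induces, had 293 to 538 normalized counts in replicate 1 and 237 to 836 in later replicates. GAL2, another galactose-induced gene, had 328 to 449 and 126 to 327. Of 9 galactose genes listed, 5 had a higher and 4 a lower fitted level in replicate 1. The growth state of the cultures was not tested. The 3 libraries of wild-type cells with an empty vector were not analysed here. No label says that cultures with the same number were grown, extracted or sequenced together, and the p-values measure the spread between these libraries.

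Yeast cells match their transcripts to the food at hand. When amino acids run short, the activator Gcn4 switches on the genes of their synthesis, and when the preferred nitrogen or carbon source is used up, genes that take up and break down arginine, proline, acetate or glycerol are released from repression. Oxygen and haem control another set through the repressor Rox1, zinc controls a set through Zap1, and sterol synthesis is tuned by the membrane's own sterols.

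Total reads were 13991742 to 18332088 in replicate 1 and 10127206 to 20286329 in later replicates (exact permutation within strains, two-sided, p = 0.259). Transfer RNA genes took 0.00947 to 0.024% of reads in replicate 1 and 0.00549 to 0.183% in later replicates, where replicate 2 of oe SSC1 and both later oe LHS1 libraries had at least 0.148%. LHS1 had 23647, 56679 and 60337 normalized counts in its own strain and at most 2211 elsewhere, and TCP1 had 22042, 47002 and 26906 in its own and at most 2577 elsewhere. EGD2 had 24039 and 17746 in its own strain, above the 16374 that was the highest value elsewhere. SSC1 had 30045, 82518 and 11336 in the 3 libraries labelled oe SSC1 against 14940 to 32390 elsewhere, so its level did not set these libraries apart. The name oe SSC1 therefore stands here for the libraries labelled so, and the main counts were also taken without them. Replicate 3 of oe SSC1 stood apart on chromosome II, whose genes had a median of 0.38 on the log2 scale above their own median over libraries, against -0.03 to 0.04 in the other libraries. STE2, the receptor made by a cells, had 7013 to 13307 normalized counts over the 11 libraries, and STE3, the receptor made by alpha cells, had 120 to 617.

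The 4 replicate 1 libraries resembled each other more than they resembled later libraries of their own strain. The distance between 2 libraries was taken as the SD, over the 6592 genes, of their log2 difference. It was 0.358 to 0.572 for the 6 pairs of replicate 1 libraries, each from different strains, and 0.741 to 1.162 for the 7 pairs of a replicate 1 library with a later one of the same strain, so the 2 ranges did not overlap. Pairs of later libraries spread more widely. The 18 such pairs from different strains had 0.331 to 1.509, with a median of 1.304, and the 3 from the same strain had 0.288, 1.33 and 1.361. Some later libraries of different strains were as close as replicate 1 pairs. Replicate 2 of oe EGD2 and of oe TCP1 lay 0.331 apart, and replicate 3 of oe SSC1 lay 0.568 and 0.533 from them. The smallest of all, 0.288, joined replicates 2 and 3 of oe LHS1, whose reads still differed by more than counting noise (chi-square of 11.9 per degree of freedom), so both were kept.

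**Figure D1:**
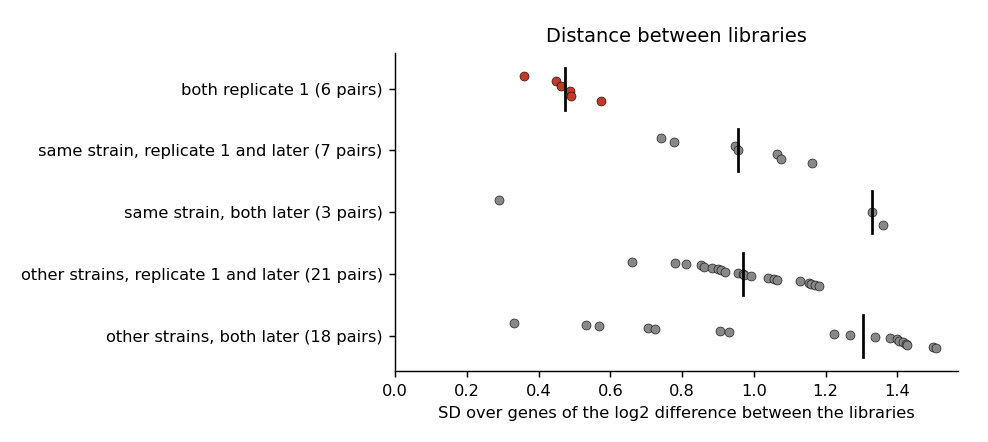
Distance between libraries, as the SD over 6592 genes of the log2 difference (x axis), for 5 kinds of pairs; each point is a pair and each bar a median. The 6 pairs of replicate 1 libraries lie between 0.358 and 0.572, below every pair of replicate 1 with a later library of the same strain.

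Within replicate 1, a gene's levels over the 4 strains had a median SD of 0.208 on the log2 scale (quartiles 0.139 and 0.319 over genes). The same median was 0.454 over the 4 replicate 2 libraries, 0.428 over the 3 replicate 3 libraries and 0.471 over all 7 later ones. In a principal component analysis, the first component carried 57.2% of the variance and placed replicate 1 between -24.6 and -2.75, inside the range of -58.2 to 61.9 held by the later libraries. The third component, with 11.1% of the variance, placed replicate 1 at -25.2 to -10.3 and 6 later libraries at 8.84 to 23.8, while replicate 3 of oe TCP1 lay with replicate 1 at -17.2.

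**Figure D2:**
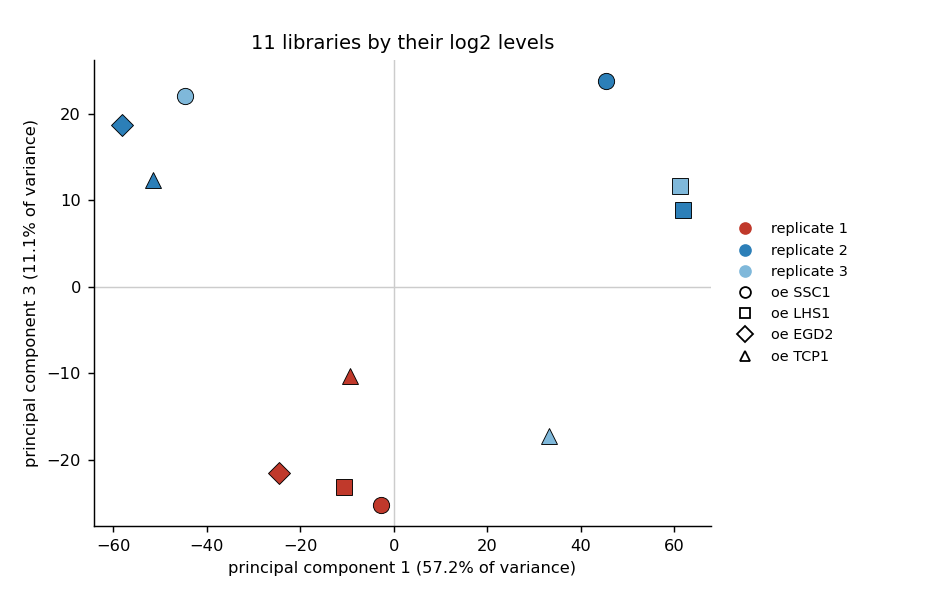
Principal components 1 (57.2% of variance, x axis) and 3 (11.1%, y axis) of the 11 libraries, from log2 levels; colour gives the replicate number and shape the strain. The 4 replicate 1 libraries lie together at -25.2 to -10.3 on component 3, with replicate 3 of oe TCP1 beside them at -17.2.

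Gene by gene, no difference between replicate 1 and the later replicates passed the test. limma, fitted on log2(normalized count + 1) with strain as a covariate and Benjamini-Hochberg adjustment over all 6592 genes, called 0 genes at an adjusted p under 0.05, with a smallest adjusted p of 0.13, and edgeR on recovered reads also called 0, with a smallest of 0.124. At an unadjusted p under 0.05 limma gave 970 genes, 14.7% of those tested, of which 484 were higher in replicate 1 (7.34%) and 486 lower (7.37%), and edgeR gave 982. DESeq2 on the same reads called 337 genes (5.11%), with 169 higher (2.56%) and 168 lower (2.55%), and 1223 at an unadjusted p under 0.05. The unadjusted limma count was 543 without replicate 1 of oe SSC1, 554 without replicate 1 of oe LHS1 and 638 without replicate 3 of oe LHS1. Without replicate 2 of oe SSC1, limma called 17 genes, 12 higher and 5 lower, and without all 3 libraries labelled oe SSC1, or without either oe EGD2 library, it called 0.

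Replicate 1 lay on the same side of the later libraries' mean in all 4 strains for 1849 genes (28%), with 868 higher (13.2%) and 981 lower (14.9%). All 4 replicate 1 libraries lay above all 7 later ones for 161 genes (2.44%) and below them for 223 (3.38%), together 5.83%. A test of whether the strains differed in their replicate 1 difference called 0 genes with limma and gave 19 at an unadjusted p under 0.05 (0.288%), while DESeq2 called 2. The 4 strains themselves differed for 3 genes at an adjusted limma p under 0.05 (0.0455%), which were TCP1, LHS1 and HIP1, the histidine permease gene, and for 37 at an unadjusted p under 0.05 (0.561%). With the replicate number as a block these counts were 3 and 47 (0.713%). Since limma called no gene for the replicate number, the values that follow describe these libraries. Differences are replicate 1 minus later, on the log2 scale, with the limma standard error.

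Most amino acid synthesis genes had lower values in replicate 1 than in later replicates. Of the 50 genes listed for it, 48 had a negative difference and the median was -0.71, against -0.02 over all genes tested. By strain, the median was -0.87, -0.65, -0.59 and -0.76, each set against the mean of that strain's later libraries. The list's median level, on the log2 scale relative to each gene's mean over the 11 libraries, was -0.43 in replicate 1 of oe SSC1, against -0.48 in its replicate 2 and 1.19 in its replicate 3, the library that stood apart on chromosome II. In that strain replicate 1 was thus below replicate 3 and not below replicate 2. In the other strains it was below each later library, with -0.62 against -0.13 and -0.14 in oe LHS1, -0.28 against 0.31 in oe EGD2 and -0.37 against 0.32 and 0.53 in oe TCP1. Without replicate 3 of oe SSC1, the median difference was -0.52. At an unadjusted limma p under 0.05, 24 of the 50 were lower (48%) and 0 higher, DESeq2 called 11 lower, 37 were lower in all 4 strains, and 12 had all replicate 1 libraries below all later ones. Over all genes tested, 7.37% were lower at that p and 2.55% by DESeq2. In all 4 strains 14.9% of all genes were lower, and 3.38% had replicate 1 below all later libraries. The limma count of 24 was 15 without replicate 1 of either oe SSC1 or oe LHS1, 11 without replicate 1 of oe TCP1 and 25 without the 3 libraries labelled oe SSC1.

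LYS20 (YDL182W, chrIV:133437-134723 in R64), which encodes the homocitrate synthase that opens lysine synthesis, had 1731, 1447, 1772 and 2770 normalized counts in replicate 1 of the 4 strains, against 3743 at the lowest, 8096 at the median and 13394 at the highest in later replicates. The groups did not overlap, and each strain's replicate 1 was its lowest library. The difference was -1.94 ± 0.32 (limma, adjusted p = 0.13). LYS12, for homoisocitrate dehydrogenase of the same pathway, had 2256, 2312, 2685 and 2305 in replicate 1 and 3059, 6231 and 7750 at the lowest, median and highest in later replicates (difference -1.21 ± 0.28). LYS2, for aminoadipate reductase, had 2272, 2225, 2566 and 3411 in replicate 1 against 3798, 4633 and 10181 (difference -0.96 ± 0.26). LYS2 is a gene of chromosome II, and its difference was -0.79 without replicate 3 of oe SSC1, where that chromosome stood apart. LYS9 and LYS4 of the lysine pathway also had replicate 1 below all later libraries.

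HIS4, whose product catalyses several steps of histidine synthesis, had 1576, 1545, 1690 and 1909 normalized counts in replicate 1 and 2405, 5171 and 19866 at the lowest, median and highest in later replicates. The replicate 1 values lay close together and under every later value, while the later ones fell into a low set, which held both oe LHS1 libraries and replicate 2 of oe SSC1, and a high set. Its difference was -1.92 ± 0.57. ILV2, for acetolactate synthase of the valine and isoleucine pathway, had 4936, 4672, 4734 and 6036 in replicate 1 and 7208, 9209 and 12697 in later replicates (difference -0.83 ± 0.19). In arginine synthesis, ARG3, for ornithine carbamoyltransferase, had 3093, 3404, 3338 and 4368 in replicate 1 against 5096, 7848 and 14769 (difference -1.09 ± 0.28). ARG8, HIS7 and TRP2 were also among the 12 genes without overlap, and only LEU1 and ILV5 of the list had a difference that was not negative.

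**Figure D3:**
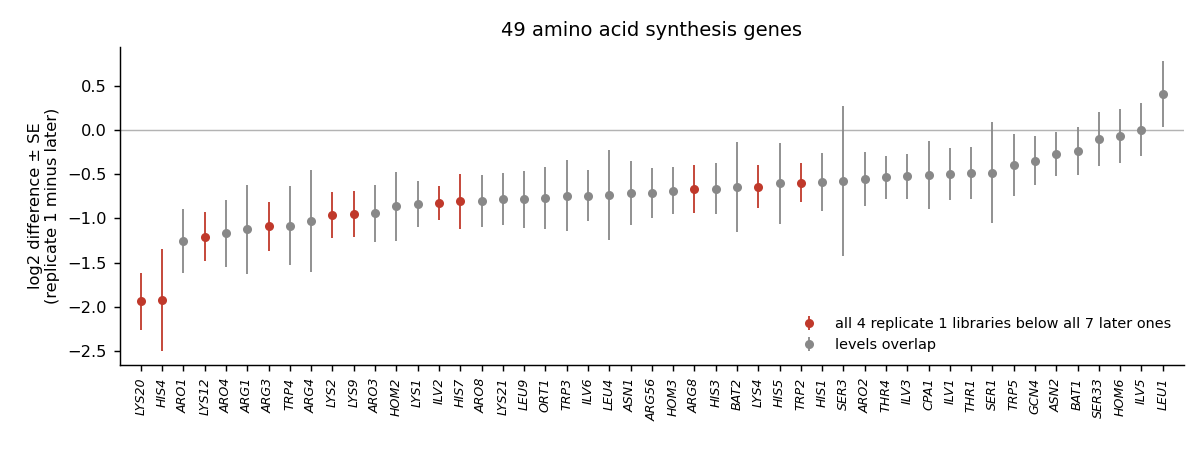
Log2 difference (replicate 1 minus later, y axis) with its limma standard error for 49 amino acid synthesis genes, ordered by size. Red points are the 11 genes shown whose 4 replicate 1 libraries all lie below the 7 later ones; 47 of the 49 points lie below 0.

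Regulators of these pathways differed among themselves. GCN4, the activator itself, had 11514, 10048, 11739 and 9509 normalized counts in replicate 1 and 8421, 14592 and 17917 at the lowest, median and highest in later replicates, so its groups overlapped (difference -0.35 ± 0.27). Its control is known to act largely on translation, which transcript counts do not show. LEU3, the activator of leucine synthesis genes, had 988, 1066, 1026 and 1116 in replicate 1 against 1422, 1837 and 2101 (difference -0.74 ± 0.15). ARG81, a regulator of arginine genes, had 596, 590, 597 and 721 in replicate 1 and 804, 1015 and 1239 in later replicates (difference -0.72 ± 0.13). Both lay under every later library. RTG1, an activator of the mitochondria-to-nucleus pathway that supplies oxoglutarate for glutamate, had a difference of -0.90 ± 0.18, and PYC2, a pyruvate carboxylase gene on chromosome II, one of -1.04 ± 0.20, or -0.95 without replicate 3 of oe SSC1.

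Gcn4 is known to bind the letters TGACTC, which were searched for in the promoters. In a window of 300 bases that begins 450 bases before the start codon, they were found on either strand in 30 of the 50 amino acid promoters (60.0%), so not in the other 20, and in 497 of 5824 promoters of all genes tested (8.5%). Motifs searched beside it were AGGGG, the stress response element, in 10 of the 50 and 23.6% of all, GATGAG in 11 and 17.1%, AAAATTTT in 5 and 6.9%, CACGTG in 5 and 4.6%, GGTGGCAAA in 0 and 0.8%, CACCC in 8 and 23.7%, and the Gal4 motif in 3 and 2.1%. LYS20 had no TGACTC in this window. The promoters of HIS4 and ARG3, chosen after their values were seen, are shown because both genes were among those without overlap, with each TGACTC or its complement in capitals (R64, read 5′ to 3′ on the coding strand, HIS4 chrIII:68484-68783 on the minus strand and ARG3 chrX:268349-268648 on the plus strand).
HIS4: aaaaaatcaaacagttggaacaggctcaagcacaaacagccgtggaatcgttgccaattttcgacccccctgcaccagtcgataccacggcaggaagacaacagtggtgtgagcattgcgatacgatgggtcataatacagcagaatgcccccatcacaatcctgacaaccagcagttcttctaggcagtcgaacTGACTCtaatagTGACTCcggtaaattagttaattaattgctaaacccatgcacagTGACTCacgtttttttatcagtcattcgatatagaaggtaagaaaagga
ARG3: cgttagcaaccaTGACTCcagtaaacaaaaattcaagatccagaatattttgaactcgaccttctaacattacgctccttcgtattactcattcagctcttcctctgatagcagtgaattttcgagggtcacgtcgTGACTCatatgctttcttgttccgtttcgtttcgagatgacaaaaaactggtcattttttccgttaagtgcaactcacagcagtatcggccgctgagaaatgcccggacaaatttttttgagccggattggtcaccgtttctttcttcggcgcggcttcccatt
HIS4 held 3 such matches and ARG3 held 2. A match is a run of letters and was not tested for binding. The list holds pathways that Gcn4 is known to switch on, so its share of TGACTC is no result about replicate 1. Whether genes with the motif differed more than those without it was not tested.

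Most transcripts of the mitochondrial genome that could be tested had lower values in replicate 1, at counts close to the limit used. Of 28 listed mitochondrially encoded genes, 11 passed the limit of 5, and 10 of these had a negative difference, with a median of -0.67, and with -0.78, -0.69, -0.44 and -0.98 by strain. With no limit on level the list's median was -0.32, so the value rests on the 11 genes that passed. At an unadjusted limma p under 0.05, 7 of the 11 were lower (63.6%, beside 7.37% of all genes) and 0 higher. DESeq2 called 3 of them lower, beside 2.55% of all genes. Reads of mitochondrially encoded genes made up 0.0072 to 0.0117% of a replicate 1 library and 0.0113 to 0.0204% of a later one, with a mean difference that reached the smallest p the exact permutation allows over its 54 arrangements (p = 0.0185).

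OLI1 (Q0130), for the ring subunit of ATP synthase, had 9.9, 12.4, 8.9 and 14.4 normalized counts in replicate 1 and 20.3, 28.9 and 43.4 at the lowest, median and highest in later replicates (difference -1.29 ± 0.29). COX3 (Q0275), for a cytochrome c oxidase subunit, had 9.9, 6.2, 5.2 and 9.6 in replicate 1 against 13.9, 20.4 and 29.4 (difference -1.28 ± 0.30). Neither gene's groups overlapped, and every value was under 50 counts. Of the 39 nuclear genes for the respiratory chain and ATP synthase, 7 were lower (17.9%) and 1 higher (2.56%) at an unadjusted p under 0.05, with a median of -0.25. Over all genes, 7.37% were lower and 7.34% higher. The intron genes AI1 and AI2 lie within COX1 in the annotation, so these members of the list may share reads.

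Single genes for the use of arginine, proline, acetate and glycerol had higher values in replicate 1, and were picked for a small p or after their values were seen. CAR1 (YPL111W, chrXVI:339944-340945), for arginase, had 21808, 23462, 16892 and 19636 normalized counts in replicate 1 and 2654, 3769 and 11076 at the lowest, median and highest in later replicates. Every replicate 1 library lay above every later one, and the difference was 2.02 ± 0.37 (limma, adjusted p = 0.13). CAR2, for ornithine transaminase, the next step of arginine breakdown, had 7601, 8987, 6091 and 10474 in replicate 1 against 722, 1681 and 5857 (difference 2.03 ± 0.57). PUT4, for the proline permease, had 5663, 8516, 7551 and 12377 in replicate 1 against 323, 1105 and 4178 (difference 2.56 ± 0.67). In oe EGD2, whose only later library was the highest one for CAR2, the difference of that gene was 0.06.

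These 3 genes were not typical of the nitrogen catabolite repression targets, the genes silenced while good nitrogen sources last. Of 26 targets listed, 3 were higher (11.5%, beside 7.34% of all genes) and 1 lower at an unadjusted limma p under 0.05, 11 had a positive and 15 a negative difference, and the median was -0.02, equal to that of all genes. MEP3, for an ammonium permease, was the lower one, at -0.44. Of 17 amino acid permeases, 1 was higher (5.88%, beside 7.34% of all genes), and it was PUT4.

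ADY2 (YCR010C, chrIII:132273-133124), for an acetate transporter, had 2299, 2622, 2360 and 3978 normalized counts in replicate 1 and 125, 211 and 817 at the lowest, median and highest in later replicates (difference 3.13 ± 0.50). Every replicate 1 library lay far above the highest later one. STL1, for a glycerol proton symporter, had 9132, 9000, 7032 and 13160 in replicate 1 against 188, 862 and 6656 (difference 3.14 ± 0.92). POT1, for the peroxisomal thiolase of fatty acid oxidation, had 1559, 2040, 2269 and 2627 in replicate 1 against 252, 414 and 988 (difference 1.92 ± 0.40). STL1 and POT1 did not overlap between the groups either. Their pathways as lists were less uniform. At an unadjusted limma p under 0.05, 4 of 16 gluconeogenesis and glyoxylate genes were higher (25%), 3 of 13 glycerol genes (23.1%) and 2 of 18 peroxisomal fatty acid oxidation genes (11.1%). Lower were 0, 0 and 1 (5.56%) of these lists. Over all genes, 7.34% were higher and 7.37% lower. Of the 13 glycerol genes, 8 had a positive and 5 a negative difference.

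The promoters of CAR1 and ADY2 are shown as the 2 genes of this group named by the smallest p, with TGACTC or its complement in capitals for CAR1 (R64, chrXVI:339494-339793, plus strand) and AGGGG or its complement in capitals for ADY2 (chrIII:133275-133574, minus strand).
CAR1: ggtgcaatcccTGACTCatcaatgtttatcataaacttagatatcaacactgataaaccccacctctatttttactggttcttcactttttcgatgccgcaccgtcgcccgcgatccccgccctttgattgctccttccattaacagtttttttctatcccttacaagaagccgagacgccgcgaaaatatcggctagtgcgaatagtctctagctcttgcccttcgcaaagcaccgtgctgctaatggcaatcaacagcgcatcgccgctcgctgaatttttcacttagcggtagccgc
ADY2: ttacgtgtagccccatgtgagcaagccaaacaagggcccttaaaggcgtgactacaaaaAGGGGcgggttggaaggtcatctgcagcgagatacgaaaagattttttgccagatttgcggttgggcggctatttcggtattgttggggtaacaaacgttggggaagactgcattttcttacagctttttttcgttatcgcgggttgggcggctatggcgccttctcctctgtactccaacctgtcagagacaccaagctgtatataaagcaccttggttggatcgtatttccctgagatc
CAR1 thus held the same 6 letters as the amino acid genes, with replicate 1 on the other side, and there they overlap a GATGAG on the opposite strand. Of the 11 promoters found for the 12 named genes that were higher, 3 held AGGGG (27.3%) and 1 held TGACTC (9.1%). For the 12 that were lower, 0 held AGGGG and 1 held TGACTC (8.3%).

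**Figure D4:**
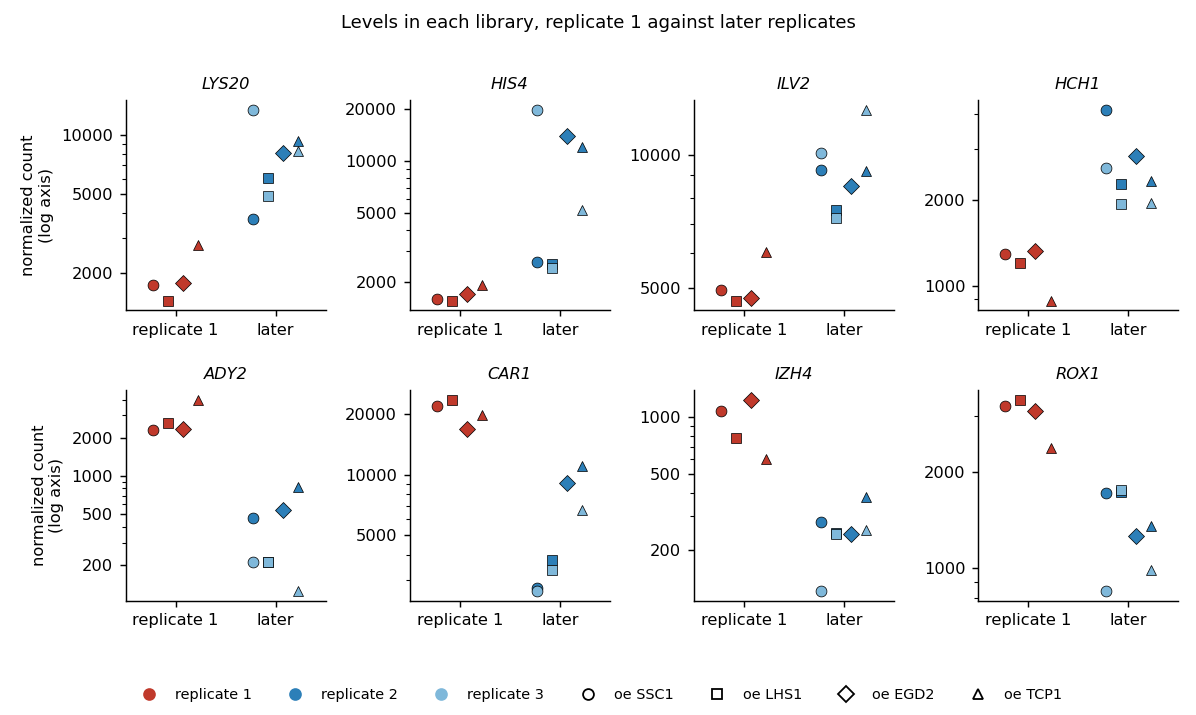
Normalized counts (log axes) of 8 genes in replicate 1 (red) and in replicates 2 and 3 (blues); each point is a library and its shape gives the strain. LYS20, HIS4, ILV2 and HCH1 lie lower in all 4 replicate 1 libraries than in the 7 later ones, and ADY2, CAR1, IZH4 and ROX1 lie higher.

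Sulfur genes included MUP1, for the high-affinity methionine permease, which had 9082, 15362, 11018 and 14353 normalized counts in replicate 1 and 1891, 3194 and 6994 at the lowest, median and highest in later replicates (difference 1.81 ± 0.37). CYS3, for cystathionine gamma-lyase, which makes cysteine, had 8226, 9180, 9981 and 7256 in replicate 1 against 3640, 4999 and 7002 (difference 0.79 ± 0.23). These were the 2 genes of 25 in sulfate assimilation and methionine synthesis that were higher at an unadjusted limma p under 0.05, which is 8%, near the 7.34% of all genes, and 0 were lower.

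Hypoxic genes, which yeast transcribes when oxygen or haem is scarce, had a median difference of 0.82 over 20 genes. At an unadjusted limma p under 0.05, 7 were higher (35%, beside 7.34% of all genes) and 0 lower. DESeq2 called 5 of them higher, beside 2.56% of all genes. By strain, the list's medians were 0.92, 0.19, 0.27 and 0.73. ROX1 is counted in this list although it encodes the repressor of the set, and it was the 1 gene of the list with replicate 1 above all later libraries. ROX1 had 3230, 3366, 3104 and 2375 normalized counts in replicate 1 and 844, 1354 and 1752 at the lowest, median and highest in later replicates (difference 1.17 ± 0.22). Its levels were even across strains, whereas those of the cell wall mannoprotein genes of the set were not. TYR1, which the list also holds and which is known for tyrosine synthesis, lay below all later libraries, at -0.44.

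DAN1, an anaerobic cell wall protein gene, had 7688, 743, 1346 and 94.8 normalized counts in replicate 1 of the 4 strains, against 32.2, 69.3 and 410 at the lowest, median and highest in later replicates (difference 3.51 ± 0.76). TIR2, another cell wall mannoprotein gene, had 12325, 1310, 3686 and 777 in the same libraries against 412, 433 and 839 (difference 2.31 ± 0.60). Replicate 1 of oe SSC1 was by far the highest for both, and without it the differences were 2.75 and 1.40. HEM13, for a haem synthesis enzyme that oxygen represses, had 12571, 5453, 17312 and 5436 in replicate 1 against 1942, 4039 and 6601, with overlap (difference 1.28 ± 0.43).

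Sterol synthesis, which needs oxygen and haem, had a median difference of 0.64 over 25 genes. At an unadjusted limma p under 0.05, 6 were higher (24%, beside 7.34% of all genes) and 0 lower. DESeq2 called 1 of them higher, beside 2.56% of all genes. The medians by strain were 1.08, 0.37, 0.95 and -0.28, so oe TCP1 was on the other side. The median was 0.41 without replicate 1 of oe SSC1 and without either oe EGD2 library. Against replicate 3 only, a fit that leaves out oe EGD2, it was 0.19, and the contrast with replicate 3 on all 11 libraries gave 0.27. ERG1, for squalene epoxidase, had 19350, 13921, 10752 and 9174 normalized counts in replicate 1 and 4055, 6925 and 8276 at the lowest, median and highest in later replicates, with no overlap (difference 1.07 ± 0.23). ERG11, for lanosterol demethylase and the target of azole drugs, had 17812, 11393, 10617 and 5600 in replicate 1 against 3569, 8198 and 10104, with overlap (difference 0.64 ± 0.34).

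Zinc regulon genes, which Zap1 switches on when zinc is low, had a median of 0.69 over 12 genes. At an unadjusted limma p under 0.05, 6 were higher (50%, beside 7.34% of all genes) and 0 lower. DESeq2 called 2 of them higher, beside 2.56% of all genes. By strain, the medians were -0.09, 0.94, 1.49 and 0.29. Against replicate 3 only, a fit that leaves out oe EGD2, the median was 0.45. The contrast with replicate 3 on all 11 libraries gave 0.65. IZH4 (YOL101C), for a membrane protein of zinc homeostasis, was higher in every strain, with 1083, 776, 1234 and 601 normalized counts in replicate 1 and 121, 246 and 381 at the lowest, median and highest in later replicates (difference 1.85 ± 0.32). ZPS1, a zinc-responsive cell surface protein gene, had 446, 11389, 14303 and 3770 in replicate 1 against 508, 676 and 863. Replicate 1 of oe SSC1 was thus under every later library for ZPS1 and the other 3 were far above, and the limma test that strains differ in their replicate 1 difference gave an unadjusted p of 0.0005 and did not pass after adjustment. ZRT1, for the high-affinity zinc transporter, had 6580, 31430, 41684 and 18407 in replicate 1 against 5145, 8311 and 17917, a like order of strains.

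Meiosis genes, which starved diploid cells use and growing cells normally keep silent, had a median of 0.53 over 22 genes. At an unadjusted limma p under 0.05, 5 were higher (22.7%, beside 7.34% of all genes) and 0 lower. DESeq2 called 3 of them higher (2.56% of all genes), and 10 were higher in all 4 strains (13.2% of all genes). The median was 0.33 without replicate 1 of oe TCP1 and 0.25 against replicate 2 only. SMK1 (YPR054W), for a kinase of spore wall assembly, had 1226, 1386, 887 and 1010 normalized counts in replicate 1 and 425, 495 and 880 at the lowest, median and highest in later replicates (difference 1.08 ± 0.16). DMC1, for the meiotic recombinase, had 706, 1074, 824 and 718 in replicate 1 against 111, 222 and 424 (difference 1.86 ± 0.36). IME2, for the kinase that drives entry into meiosis, had 979, 1290, 905 and 1173 in replicate 1 against 323, 575 and 775 (difference 1.07 ± 0.27). In all 3 the groups did not overlap, although the lowest replicate 1 value of SMK1 was close to the highest later one. UME6, for the repressor that keeps many of these genes off in growing cells, had overlapping groups (difference 0.47 ± 0.18). Counting did not use the strand, so antisense reads over these genes could not be told apart from sense ones.

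Drug export genes were split. Of 14 multidrug resistance genes, 4 were higher (28.6%, beside 7.34% of all genes) and 0 lower at an unadjusted limma p under 0.05, while the list's median was -0.05. PDR15, for a plasma membrane transporter, had 4947, 4794, 6117 and 7760 normalized counts in replicate 1 and 575, 1434 and 2791 at the lowest, median and highest in later replicates, with no overlap (difference 1.85 ± 0.41). PDR5, for the main drug exporter of the same family, had 15662, 21494, 18851 and 23091 in replicate 1 against 6066, 8262 and 23921, where the highest later value came from replicate 2 of oe SSC1 (difference 1.16 ± 0.38).

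Among chaperones, 2 of 29 heat shock and cytosolic chaperone genes were lower at an unadjusted limma p under 0.05, a share of 6.9% beside 7.37% of all genes, and 0 were higher, with a median of 0.03. The list thus held no more lower genes than the genome, and the 2 are given as single genes. Both encode activators of the Hsp90 ATPase. HCH1 (YNL281W) had 1296, 1201, 1318 and 886 normalized counts in replicate 1 and 1934, 2332 and 4131 at the lowest, median and highest in later replicates, with no overlap (difference -1.13 ± 0.18). AHA1 had 1984, 2010, 2633 and 2090 in replicate 1 against 1771, 6531 and 10120, with overlap (difference -1.32 ± 0.42). The Hsp90 genes themselves had differences of 0.14 ± 0.54 for HSC82 and -0.18 ± 0.91 for HSP82, which ran over wide ranges in later replicates. Between replicates 2 and 3, 16 of these 29 genes passed an unadjusted limma p under 0.05, beside 4.17% of all genes. That contrast was uneven over strains. The list's summed normalized counts were 2146730 in replicate 2 and 286302 in replicate 3 of oe SSC1. They were 552442 and 173354 in oe TCP1 and nearly level in oe LHS1, at 595730 and 564860.

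Of the remaining genes named by smallest p, some had narrow values in replicate 1 and others did not. YIL092W, a gene of unknown function, had 378, 374, 370 and 371 normalized counts in replicate 1 and 634, 691 and 808 at the lowest, median and highest in later replicates (difference -0.88 ± 0.12). YHL042W, a member of a family of subtelomeric membrane protein genes, had 181, 176, 172 and 162 in replicate 1 against 335, 348 and 614 (difference -1.20 ± 0.15), and reads may be shared among such copies. The replicate 1 values of each lay close together across the 4 strains, and all were under the lowest later one.

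TEA1, for a transcription activator of Ty elements, had 567.7, 501, 605 and 645 normalized counts in replicate 1 against 1024, 1406 and 2604 at the lowest, median and highest in later replicates (difference -1.36 ± 0.22). SWI4, for the DNA-binding subunit of the factor that starts late G1 transcription, had 547, 449, 476 and 711 in replicate 1 against 861, 972 and 1240 (difference -0.89 ± 0.16). SAP30, for a subunit of the Rpd3L histone deacetylase complex, had 1298, 1206, 1442 and 1163 in replicate 1 against 496, 637 and 780 (difference 1.00 ± 0.15). The first 2 were lower and SAP30 higher in every replicate 1 library than in any later one. SLD7, PUL4, RDS1, MRF1 and DMO1 lay below all later libraries, with differences of -1.12 to -0.71, and IPL1, YML053C, YGR050C and RUF21 lay above them, with differences of at least 0.80. PUL4, a gene with 91.0, 128, 91.5 and 184.9 normalized counts in replicate 1 against 240 to 309 in later replicates, was among the wider ones within replicate 1. EUG1 and YML083C were higher in all 4 strains with overlap between the groups.

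Growth and stress genes varied widely among the later libraries, also within a strain. The 35 general stress genes driven by Msn2 and Msn4 had a median of 1.19, yet 2 were higher (5.71%, beside 7.34% of all genes) and 0 lower at an unadjusted limma p under 0.05, and the medians by strain were 0.65, 2.58, -0.56 and 1.55. In oe TCP1 the list's level relative to each gene's mean was 0.96 in replicate 1, against 1.74 in replicate 2 and -2.64 in replicate 3. CTT1, the cytosolic catalase, had 13502, 14778, 14007 and 14141 normalized counts in replicate 1 and 395, 1086 and 19133 at the lowest, median and highest in later replicates (difference 2.39 ± 1.09). HSP12, a small membrane-protecting protein of stressed cells, had 23544, 19097, 36780 and 34242 in replicate 1 against 1155, 3768 and 70965 (difference 1.67 ± 1.17). Replicate 1 thus sat inside the range of the later libraries at nearly one level for CTT1.

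Trehalose and glycogen genes had medians of 0.42, 2.12, -0.77 and 1.36 by strain, with 0 of 18 past an unadjusted p of 0.05. The 138 cytosolic ribosomal protein genes had 0.67, -0.82, 0.28 and -0.26, with 3 lower at that p (2.17%, beside 7.37% of all genes) and 0 higher. The 60 ribosome biogenesis factors had 0.39, -0.76, 0.68 and -0.58, with 0 past that p. Ribosome biogenesis factors had a relative level of -0.14 in replicate 1 of oe TCP1, against -0.64 in replicate 2 and 1.47 in replicate 3. Replicate 1 thus lay between the 2 later libraries of that strain. The limma test of whether strains differ in their replicate 1 difference gave 0 genes of these lists at an unadjusted p under 0.05. With 3 residual degrees of freedom, it gave 0.288% of all genes at that p, so it cannot decide whether the strains differ here.

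**Figure D5:**
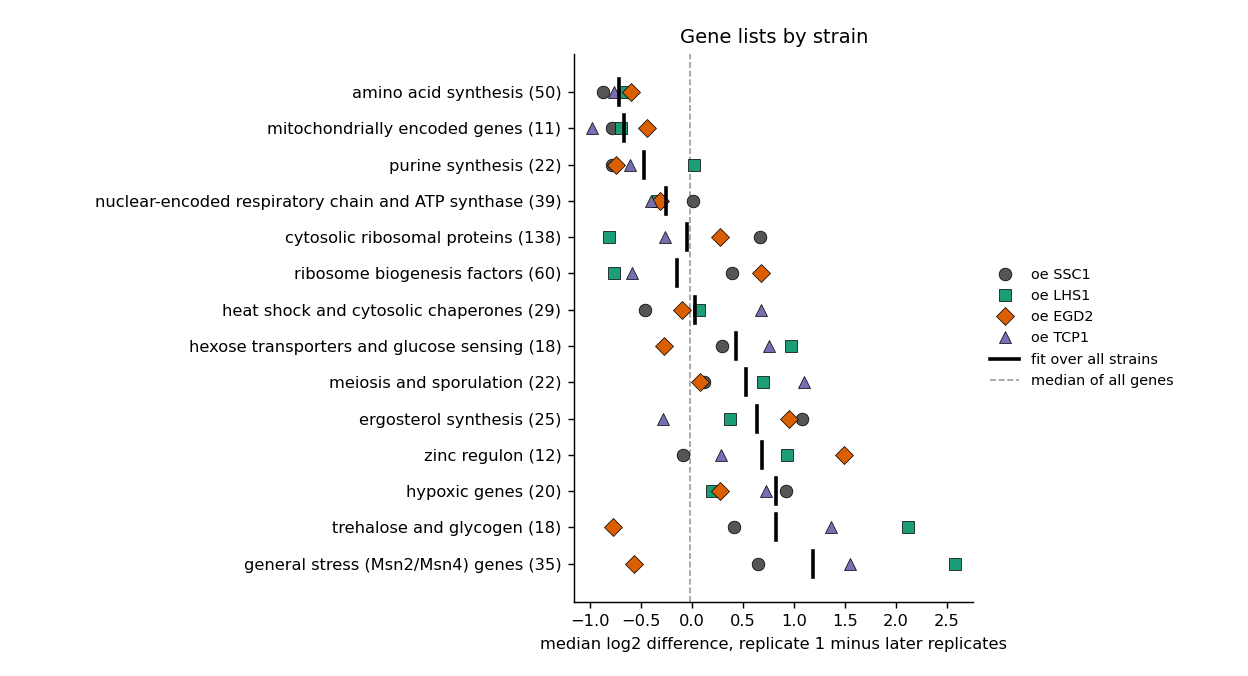
Median log2 difference (replicate 1 minus later, x axis) of 14 gene lists, with the number of genes tested in parentheses; shapes give the strains, black bars the limma fit over all strains and the dashed line the median of all genes at -0.02. Amino acid synthesis lies between -0.87 and -0.59 in the 4 strains, whereas general stress genes run from -0.56 to 2.58.

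The fitted contrasts with numbers 2 and 3 were not alike for every function. Against replicate 2, limma called 0 genes for replicate 1 and gave 557 at an unadjusted p under 0.05 (8.45%), against replicate 3 it called 0 and gave 1167 (17.7%), and between replicates 2 and 3 it called 0 and gave 275 (4.17%). DESeq2 called 109, 498 and 6. The amino acid median was -0.53 against replicate 2, with 11 of 50 lower at an unadjusted p under 0.05, and -0.98 against replicate 3, with 34 lower. Between replicates 2 and 3 it was -0.48, with 10 genes past that p. In oe SSC1 the list's level relative to each gene's mean went from -0.48 in replicate 2 to 1.19 in replicate 3. It went from -0.13 to -0.14 in oe LHS1 and from 0.32 to 0.53 in oe TCP1, while oe EGD2 has no replicate 3. That contrast was thus widest in oe SSC1, whose replicate 3 stood apart on chromosome II. The mitochondrially encoded genes had -0.68 and -0.64 against the 2 numbers, and 0 of 11 passed between them. For ergosterol synthesis 12 of 25 genes were higher against replicate 2 and 3 against replicate 3. In both contrasts 0 amino acid genes were higher and 0 ergosterol genes lower at that p. Over all genes, both directions together made up 8.45% against replicate 2 and 17.7% against replicate 3. The 3 ergosterol genes against replicate 3 were not above that share. These contrasts share the replicate 1 libraries.

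Over genes, the replicate 1 difference had a correlation of -0.13 with gene length, 0.11 with GC content and -0.003 with mean level (n = 5835 genes, which are not independent). By chromosome, the medians furthest from 0 in the nuclear genome were -0.11 on X, with -0.12, -0.16, -0.11 and -0.12 by strain, and -0.11 on II, where oe SSC1 had -0.30 and the other strains -0.07 to -0.04. Their part in the gene results was not tested.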

How the data were processed

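RNA-seq of 11 libraries of 4 chaperone-overexpressing strains was analysed. The authors aligned reads to sacCer3 (the R64 assembly) with STAR 2.3.0e, counted them per gene with HTSeq 0.6.0 without regard to strand, removed outlier libraries by PCA and divided by DESeq2 size factors. The deposited values are thus normalized counts, a signal per gene. Whole reads were recovered from them, and 100% of values lay within 0.01 of a whole number. RefSeq R64 matched 6045 of 7122 genes by systematic name.

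The R 4.3.3 package limma 3.58.1, with a trend of variance on level, was fitted on log2(normalized count + 1) with strain and replicate set, two-sided. It covered the 6592 genes that averaged 5 or more, with Benjamini-Hochberg adjustment. The pseudocount of 1 shrinks the differences of low genes. Exact permutations moved the replicate 1 label within strains, which gives 54 arrangements. edgeR 4.0.16 and DESeq2 1.42.0 on the recovered reads, TMM scaling, pseudocounts of 0.5 and 5, other filters, no strain term and each library left out were alternatives. The tests were also run on simulated counts, drawn separately for each library and with no difference between strains. These lacked the close and distant pairs seen among the later libraries. They therefore do not tell how many differences limma could find here. The members and 48 gene lists were chosen with earlier results of these data known.

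Named genes were the 12 in each direction with the same sign in all 4 strains and a mean of at least 50 that had the smallest p, since none passed the adjusted threshold, the 2 of smallest p and 2 of highest level in lists described, and the overexpressed and marker genes. HIS4, ILV2, ARG3, LYS2, LYS9, LYS4, LEU3, PYC2, RTG1, GCN4, CAR2, IME2, TIR2, MEP3, ARG8, HIS7, TRP2, LEU1, ILV5, HIP1 and TYR1 were added after their values were seen. R64 promoters came from the reference genome. The plot of amino acid genes leaves out 1 gene, which is not reported here.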

Additional observations from a re-analysis of the deposited data

Results flagged for a closer look

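In groups of 4 replicate 1 or 7 later libraries, 158 groups of values (72 genes and 7 library measures) were examined for a highest or lowest library far from the rest by Dixon's 95% limit. Such a library was found in 11 of the 158 groups. That is close to the 1 in 20 groups that chance alone gives, and many of the 72 genes were picked on these same values. No explanation was tested.

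Within replicate 1, ARG81 was high in oe TCP1, at 721 normalized counts, LYS12 was high in oe EGD2, at 2685, and LYS4 was low in oe EGD2, at 1737. TCP1 in oe TCP1, at 22042, and LHS1 in oe LHS1, at 23647, were high, each being the gene overexpressed in that strain.

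Within the later replicates, replicate 3 of oe SSC1 was the far library for 4 genes. It was high for YIL092W, at 808 normalized counts, for DAN1, at 410, and for LYS2, at 10181, and low for IZH4, at 121. Replicate 2 of oe SSC1 was high for PDR5, at 23921, and for HSC82, at 141070.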

How the results depend on the processing

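The 0 genes called by limma stayed 0 with edgeR, TMM scaling, both pseudocounts, no filter and a mean of at least 50. DESeq2 called 337 genes for replicate 1 against later, 109 against replicate 2, 498 against replicate 3, 6 between replicates 2 and 3 and 2 for the interaction. Without a strain term 58 genes were called, 28 higher and 30 lower, all 58 of them also called by DESeq2. Leaving out each library gave 0 to 17 calls, 543 to 1310 genes at an unadjusted p under 0.05 and 11 to 34 amino acid genes lower. The amino acid median was -0.84 to -0.52 over these fits, -0.53 with replicate 2 only (15 genes lower) and -0.98 with replicate 3 only, which leaves out oe EGD2. The mitochondrially encoded median was -0.32 with no filter, and the causes were not tested. Without the 3 libraries labelled oe SSC1, chosen after seeing the data, 0 genes were called, 773 had an unadjusted p under 0.05, and the medians were -0.64 for amino acid synthesis, 0.41 for ergosterol, 0.66 for hypoxic, 0.71 for meiosis, 0.86 for zinc and -0.69 for mitochondrially encoded genes. Of 1582 values of named genes under alternatives, 29 had the other sign.

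The numbers are shared by the strains, so the comparison of strains was also fitted with a replicate block, which called the same number of genes, 3, with 47 at an unadjusted p under 0.05 against 37 without it. Deviations from the strain mean correlated at -0.19 to 0.53 between replicate 1 libraries (5 of 6 pairs over 0.1), -0.58 to 0.64 between replicate 2 libraries and -0.30 to 0.60 between replicate 3 libraries, so a shared number was not taken as a pairing. With 6 residual degrees of freedom and 1 replicate 1 library in each strain, spread within replicate 1 of a strain cannot be measured, and culture, extraction and sequencing cannot be told apart.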
